A study of Mus musculus with 24 samples.

Results

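The genes described here encode the NF-kB family of transcription factors and the proteins that hold it in check. They were the rows of the deposited expression table named Nfkb1, Nfkb2, Rel, Rela and Relb, the 5 subunit genes, and Nfkbia, Nfkbie, Nfkbiz, Tnfaip3 and Bcl3, 5 genes for inhibitors and regulators. All 10 were found among the 43629 identifiers of the table, 24301 of them with at least a single read. All 10 were also among the 18637 genes tested. The cells were mouse bone marrow-derived macrophages (BMDMs), which are macrophages grown in culture from bone marrow, of strain C57BL/6 at postnatal week 10. RNA sequencing libraries fell into 8 groups of 3. Cited2 knockout (KO) and wild-type (WT) cells were each treated with LPS, a bacterial cell wall component that signals through TLR4, with IFNg (interferon gamma) or with IL4 (interleukin 4), or kept as untreated controls. CITED2 is a transcriptional co-regulator that binds CBP and p300, and the study asked how it shapes the inflammatory response of macrophages. The labels give no dose or duration of treatment and do not say how or in which cells Cited2 was deleted. The p-values here measure only the spread between the libraries of a group, which may be technical, since no label says that they came from separate animals or cultures.

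NF-kB acts as dimers of its subunits. Rela, Rel and Relb carry transactivation domains, whereas Nfkb1 and Nfkb2 encode precursors that are processed to the DNA-binding proteins p50 and p52. In resting cells IkB proteins such as IkBa (from Nfkbia) and IkBe (from Nfkbie) keep dimers in the cytoplasm. When LPS acts on macrophages, the IkB kinase complex marks these inhibitors for degradation and the dimers enter the nucleus, where their targets include the genes of the inhibitors themselves. Nfkbiz and Bcl3 encode atypical nuclear IkB proteins that bind p50 or p52 on DNA and can raise or lower transcription. Tnfaip3 encodes A20, a ubiquitin-editing enzyme that restrains signalling upstream of the kinase complex.

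RefSeq promoter windows on GRCm38.p6, from 250 bases before to 50 bases after an annotated start, were matched for 7 of the 10 genes, as 10 windows because Nfkb2 has 3 starts and Tnfaip3 has 2. A kB consensus, the DNA element that NF-kB dimers bind, was searched on both strands, and it lay in 8 of the 10 windows and in 6 of the 7 genes, Rela being the exception. Among all 32851 windows of that length, 4.51% held a match. The windows of Nfkb2 starts 2 and 3 overlap, and a match that lies in both is counted in each. The 4 windows shown are examples, from 2 subunit genes and 2 inhibitor genes that rose after every treatment in WT cells. Each reads 5′ to 3′ on the strand of the gene, with the bases of kB matches in capitals.
Nfkb2, start 1, chr19:46304487-46304786, plus strand: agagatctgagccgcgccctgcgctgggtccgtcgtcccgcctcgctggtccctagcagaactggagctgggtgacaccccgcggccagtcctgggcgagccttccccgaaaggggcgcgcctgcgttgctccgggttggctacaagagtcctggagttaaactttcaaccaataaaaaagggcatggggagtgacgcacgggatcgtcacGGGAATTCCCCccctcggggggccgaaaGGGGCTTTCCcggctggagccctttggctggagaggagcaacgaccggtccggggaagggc
Rel, chr11:23770920-23771219, minus strand: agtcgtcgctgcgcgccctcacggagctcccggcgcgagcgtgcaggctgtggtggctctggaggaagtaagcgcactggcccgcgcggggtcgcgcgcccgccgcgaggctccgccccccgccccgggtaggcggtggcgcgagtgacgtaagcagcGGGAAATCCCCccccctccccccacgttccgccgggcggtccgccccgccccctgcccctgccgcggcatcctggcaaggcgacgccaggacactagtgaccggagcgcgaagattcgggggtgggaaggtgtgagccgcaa
Nfkbia, chr12:55492598-55492897, minus strand: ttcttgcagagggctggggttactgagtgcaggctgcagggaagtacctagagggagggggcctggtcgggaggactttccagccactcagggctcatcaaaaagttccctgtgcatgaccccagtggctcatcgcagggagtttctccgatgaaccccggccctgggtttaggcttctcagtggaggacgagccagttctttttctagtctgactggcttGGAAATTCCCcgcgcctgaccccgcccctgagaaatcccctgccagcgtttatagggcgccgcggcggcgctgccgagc
Tnfaip3, start 1, chr10:19015361-19015660, minus strand: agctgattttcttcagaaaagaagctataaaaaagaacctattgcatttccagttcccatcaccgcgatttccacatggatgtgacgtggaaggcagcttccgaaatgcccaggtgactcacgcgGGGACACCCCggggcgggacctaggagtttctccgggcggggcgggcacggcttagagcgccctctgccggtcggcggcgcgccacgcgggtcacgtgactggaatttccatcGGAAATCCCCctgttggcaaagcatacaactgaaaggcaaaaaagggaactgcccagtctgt

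The Nfkb2 window shown, of start 1, holds overlapping matches that begin 39 and 38 bases before the start and another 11 bases before it, and in Rel the overlapping matches begin 92 and 91 bases before the start. Nfkbia has its match on the opposite strand 29 bases before the start, where it reads GGGAATTTCC. In Tnfaip3 the matches lie 125 bases before the start and, on the opposite strand, 12 bases before it. Among the windows not printed, start 2 of Nfkb2 has GGGACATTCC on the opposite strand 236 bases before it and GGGACTTTCC 11 bases after it. The match of start 3, 225 bases before it, is that same GGGACTTTCC site, since the 2 windows overlap. Nfkbie has GGGGGATTCC 106 bases before its start and Bcl3 has GGGACTTCCC on the opposite strand 3 bases after its start, while the second Tnfaip3 start and Rela have none. A match is a run of letters, and no binding was measured. The interferon gamma activation site, searched as TTCNNNGAA, lay in 8.3% of all windows and, among these genes, in Nfkb2 alone.

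**Figure D1:**
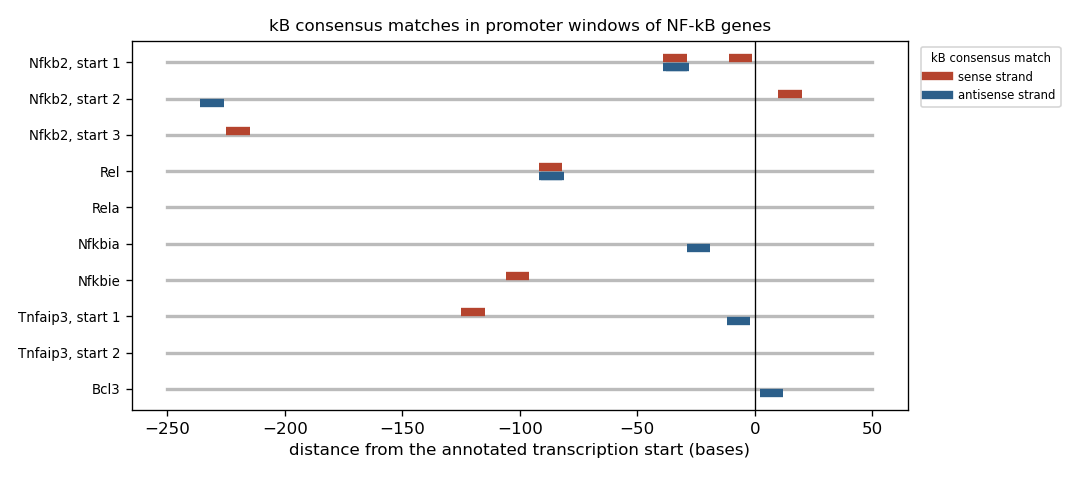
Positions of kB consensus matches in the 10 RefSeq promoter windows of 7 genes; the x axis is the distance from the annotated start in bases, each row is a window, and each bar is a match. Matches lie in 8 of the 10 windows, and those of Nfkbia, Tnfaip3 start 1 and Nfkb2 start 1 include bars within 40 bases before the start. The bar of Nfkb2 start 3 and the bar after Nfkb2 start 2 are the same site.

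Expression values are read counts divided by a factor for each library, and the libraries held 1478507 to 73409343 reads with a median of 29551522.5. The shallowest, KO LPS replicate 1, gave a value of 23.6 per read, and the members' counts there began at 71 reads for Bcl3, 91 for Relb and 161 for Rel. Cited2 itself had 20.2, 39.7 and 23.7 in the KO control libraries, against 2298, 2179 and 2144 in the WT control libraries. It ranged over 8.52 to 94.5 in the KO libraries as a whole, against 1117 to 4174 in the WT libraries. Of 8 macrophage markers 7 were found, all but Adgre1, with summed values of 100902 to 163341 per library. Among them Cd14 ran from 2106 to 46791 and Lyz2 from 323 to 2177. B cell markers summed to at most 37.6 and fibroblast markers had sums of 233 to 507. T and NK cell markers summed to 534 to 1273 in LPS and IFNg libraries and 12.2 to 41.4 in the others, with Lck reaching 1253 and the other 6 genes, Cd3e, Cd3d and Cd3g among them, at most 23.6, a single read in the shallowest library. Neutrophil markers summed to 1149 to 2575 in LPS, IFNg and control libraries and 269 to 621 in IL4 libraries. Of these S100a9 reached 1276, S100a8 798, Ngp 628 and Ltf 189, while Camp, Mpo, Elane and Ly6g reached 94.5, 26.9, 12.2 and 0.570. Dendritic cell markers summed to 657 to 845 in IFNg libraries and at most 38.6 in the others, with Clec9a reaching 717, Xcr1 141 and Zbtb46 30.0, and Flt3, Cd209a and Siglech at most 2.44. As these are bulk libraries, fewer cells of a type and less RNA per cell cannot be told apart. The library preparation is not stated to keep strand, so reads from Nfkb2 cannot be told apart from those of Psd and AC114539.1 over 299 and 531 shared exon bases, nor those of Bcl3 from Gm16175 over 161 bases.

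In WT macrophages all 10 genes rose after LPS and after IFNg, and 8 of them rose after IL4. Each member had a higher mean after LPS than after IFNg. The largest changes after LPS were in the inhibitor and regulator genes Tnfaip3, Nfkbiz, Nfkbia and Nfkbie. Their LPS means were 61.1, 48.2, 44.1 and 36.2 times the WT control means. Nfkbiz, the nuclear IkBz, fell after IL4, and Rela did not pass the test there. The test, limma on log2(value + 1) with p-values adjusted over all genes, called 53.3% of genes after LPS (25.5% higher and 27.8% lower), 45.1% after IFNg (22.5% higher and 22.6% lower) and 20.1% after IL4 (10.6% higher and 9.56% lower). The members' median log2 difference was 4.29 after LPS, 2.67 after IFNg and 0.82 after IL4, beside -0.06, 0 and 0 over all genes tested. Marker sums also lay apart from the controls in these WT libraries. T and NK cell markers summed to 534 to 575 after LPS and 613 to 643 after IFNg, against 12.2 to 23.2 in controls. Neutrophil markers summed to 2185 to 2567 after LPS, 1905 to 2016 after IFNg and 497 to 621 after IL4, against 1265 to 1504 in controls. Dendritic cell markers summed to 754 to 845 after IFNg and 29.2 to 38.6 after IL4, against 8.09 to 18.7 in controls. With IL4 fibroblast markers summed to 494 to 507 and B cell markers to 21.3 to 25.2, against 288 to 364 and 12.2 to 18.9 in controls. Macrophage markers summed to 147894 to 162049 after LPS and 122594 to 123257 after IL4, against 106005 to 117200.5 in controls. That list includes Cd14, which alone ran from 2106 to 46791 over the 24 libraries of both genotypes. The part of these marker sums in the members' changes was not tested.

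Among the subunits, Nfkb1 (chr3:135584655-135691547 on GRCm38, as are the coordinates that follow), the source of p50, had 35713, 35351 and 33098 in the WT LPS libraries and 14377, 13812 and 14093 in the WT IFNg libraries. It had 3751, 3781 and 3774 in the WT IL4 libraries and 2029.9, 2091 and 2025 in the WT control libraries. No 2 of these groups overlapped, and each treatment held all of its libraries above the controls. Its log2 differences from WT control were 4.08 ± 0.04 after LPS (adjusted p = 6.5e-28), 2.78 ± 0.04 after IFNg (adjusted p = 1.6e-24) and 0.88 ± 0.04 after IL4 (adjusted p = 8e-14). Nfkb2 (chr19:46304320-46312385), the source of p52, had 18360.2, 17361 and 14140.5 in the WT LPS libraries and 5365, 4735 and 4904 in the WT IFNg libraries. The values were 1311, 1212 and 1360.5 in the WT IL4 libraries and 672, 719 and 794 in the WT control libraries, in the same order without overlap. The log2 differences of Nfkb2 were 4.51 ± 0.09 after LPS (adjusted p = 5.5e-23), 2.78 ± 0.09 after IFNg (adjusted p = 1.5e-18) and 0.83 ± 0.09 after IL4 (adjusted p = 8.3e-08).

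Rela (chr19:5637483-5648130), which encodes the p65 subunit, had 7097, 7135 and 5939.7 in the WT LPS libraries and 3487, 3055 and 3272 in the WT IFNg libraries. It had 1512, 1469 and 1495 in the WT IL4 libraries and 1631, 1705 and 1944 in the WT control libraries. Rela was the most abundant subunit transcript of WT control cells per length and had the smallest change of the 10 after LPS and after IFNg. Its IL4 libraries all lay below the controls. The log2 differences of Rela were 1.93 ± 0.09 after LPS (adjusted p = 5.4e-15), 0.90 ± 0.09 after IFNg (adjusted p = 1.6e-08) and -0.23 ± 0.09 after IL4 (adjusted p = 0.091). For Rel (chr11:23736847-23770970), which encodes c-Rel, the values were 3428, 3199.8 and 3883 in the WT LPS libraries and 1402, 1510.0 and 1469 in the WT IFNg libraries. They were 752, 745 and 708 in the WT IL4 libraries and 457, 471 and 481 in the WT control libraries, and all treated libraries lay above the controls. Relb (chr7:19606217-19629438), the partner of p52 in the noncanonical pathway, had 2503, 2415 and 2060.0 in the WT LPS libraries and 2104, 1696 and 1827 in the WT IFNg libraries. It had 551, 599.6 and 581 in the WT IL4 libraries and 309, 319 and 364 in the WT control libraries. The LPS and IFNg ranges of Relb overlapped, and every treated library lay above the controls. Rel differed by log2 2.89 ± 0.10 after LPS (adjusted p = 5.9e-18), 1.63 ± 0.10 after IFNg (adjusted p = 8.1e-13) and 0.64 ± 0.10 after IL4 (adjusted p = 2.6e-05). Relb differed by log2 2.81 ± 0.10 after LPS (adjusted p = 1.5e-17), 2.50 ± 0.10 after IFNg (adjusted p = 2.3e-16) and 0.80 ± 0.10 after IL4 (adjusted p = 1.4e-06).

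Nfkbia (chr12:55489410-55492647), encoding the inhibitor IkBa, had 30646, 31579.8 and 30165 in the WT LPS libraries and 6693, 6687 and 6502 in the WT IFNg libraries. It had 1507, 1557 and 1653 in the WT IL4 libraries and 727, 727 and 642 in the WT control libraries, with all 4 groups apart. Its log2 differences were 5.46 ± 0.05 after LPS (adjusted p = 1.5e-28), 3.25 ± 0.05 after IFNg (adjusted p = 2.7e-24) and 1.17 ± 0.05 after IL4 (adjusted p = 1.1e-14). In Nfkbie (chr17:45555703-45563169), encoding IkBe, the values were 7129.6, 7573 and 7018 in the WT LPS libraries and 5918, 5562 and 5674 in the WT IFNg libraries. They were 507, 486 and 562 in the WT IL4 libraries and 211, 179 and 210.0 in the WT control libraries. The IFNg libraries of Nfkbie came close to the LPS libraries without reaching them, unlike those of Nfkbia, which stayed far below. Nfkbie differed by log2 5.17 ± 0.07 after LPS (adjusted p = 2.9e-26), 4.83 ± 0.07 after IFNg (adjusted p = 1.9e-25) and 1.37 ± 0.07 after IL4 (adjusted p = 8e-14). Tnfaip3 (chr10:19000910-19015657), encoding A20, had 59805, 60044 and 64165 in the WT LPS libraries and 15754, 15420.1 and 15689 in the WT IFNg libraries. It had 2063, 2036 and 2011 in the WT IL4 libraries and 987, 1054 and 972 in the WT control libraries. All 4 groups of Tnfaip3 stood apart, in the order LPS, IFNg, IL4 and control. Tnfaip3 differed by log2 5.93 ± 0.05 after LPS (adjusted p = 4.7e-30), 3.96 ± 0.05 after IFNg (adjusted p = 5.7e-27) and 1.02 ± 0.05 after IL4 (adjusted p = 1.1e-14).

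Nfkbiz (chr16:55811375-55838899) had 24381, 23073 and 24279 in the WT LPS libraries and 1985, 1980.2 and 1914 in the WT IFNg libraries. The values were 297, 247 and 295 in the WT IL4 libraries and 525, 499 and 464 in the WT control libraries. Its LPS libraries lay more than 10 times above its IFNg libraries, and its IL4 libraries lay below every control. The log2 differences of Nfkbiz were 5.59 ± 0.07 after LPS (adjusted p = 1.2e-26), 1.98 ± 0.07 after IFNg (adjusted p = 1.3e-17) and -0.83 ± 0.07 after IL4 (adjusted p = 1.7e-09). Bcl3 (chr7:19808462-19822770), a nuclear IkB that binds p50 and p52 homodimers, was the least abundant member per length in WT control cells. It had 1737, 1843 and 1371 in the WT LPS libraries and 855, 841 and 808 in the WT IFNg libraries, and 243, 218 and 258 in the WT IL4 libraries and 135, 130.3 and 156 in the WT control libraries. No treated library of Bcl3 reached down to the controls. Bcl3 differed by log2 3.54 ± 0.13 after LPS (adjusted p = 3.5e-17), 2.56 ± 0.13 after IFNg (adjusted p = 3.3e-14) and 0.77 ± 0.13 after IL4 (adjusted p = 0.00011). The 2 groups did not overlap in any member after any treatment, and the treated group was the higher one except for Rela and Nfkbiz after IL4. Over all genes such separation with the treated group higher held for 26.6%, 28.1% and 19.1% after LPS, IFNg and IL4. With the treated group lower it held for 31.0%, 30.1% and 21.1%. Centring the libraries on the median gene added 0.42 to the log2 difference of the median gene after LPS and 0.32 after IFNg, and no member's call or direction changed with it. The deposited values summed to 31791425 to 33267115 in WT LPS and 25510874 to 26196230 in WT IFNg libraries. In WT control libraries they summed to 18992840 to 19182569. Scaling the libraries to equal totals of these values would make the log2 differences after LPS and IFNg smaller, and it was not run.

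**Figure D2:**
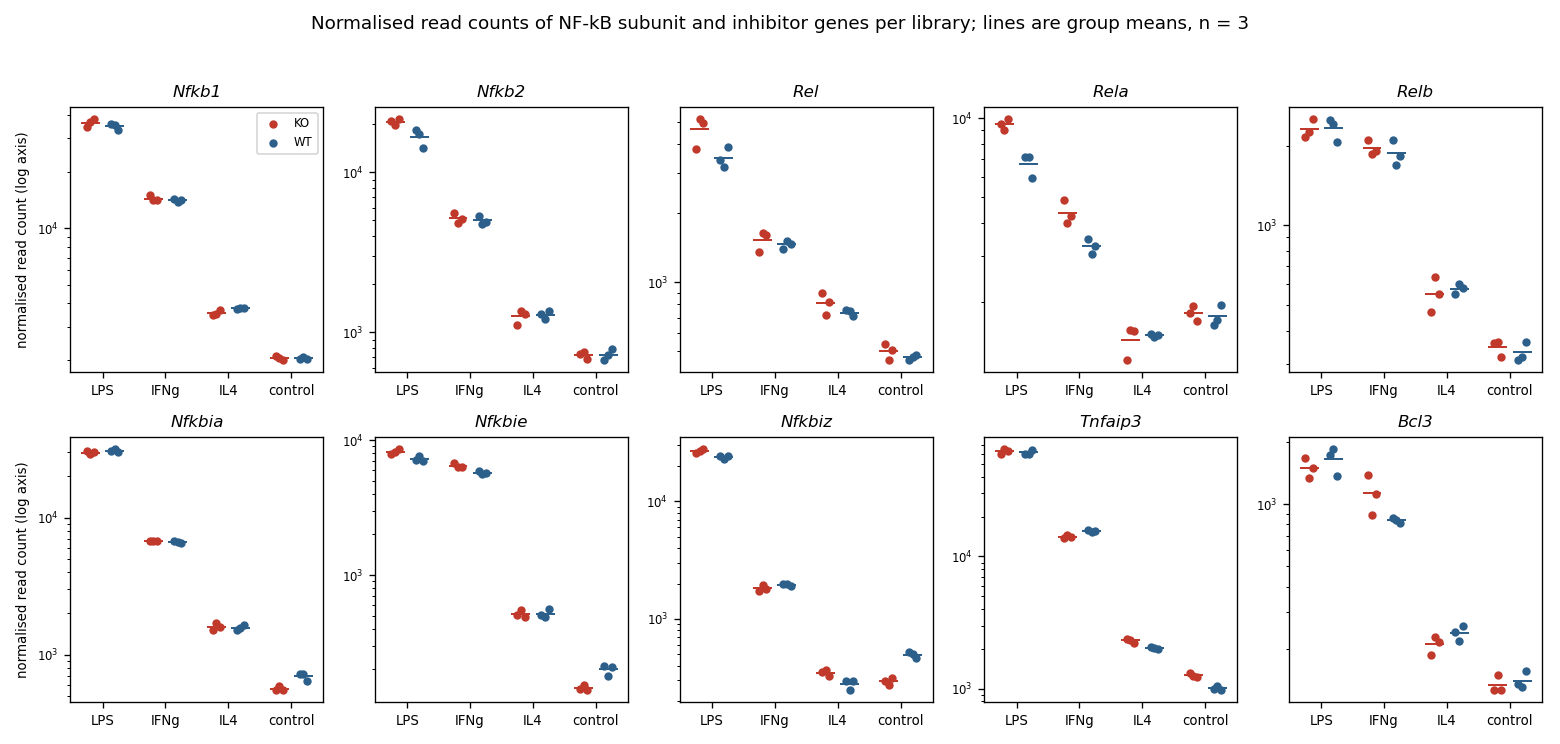
Expression value of each member in the 24 libraries, on a log axis, with the KO libraries left of the WT libraries for LPS, IFNg, IL4 and control; points are libraries and bars are group means. Group means of all 10 genes are highest with LPS, with the Bcl3 libraries of KO LPS and KO IFNg overlapping, and Nfkbiz in WT IL4 lies below WT control.

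**Figure D3:**
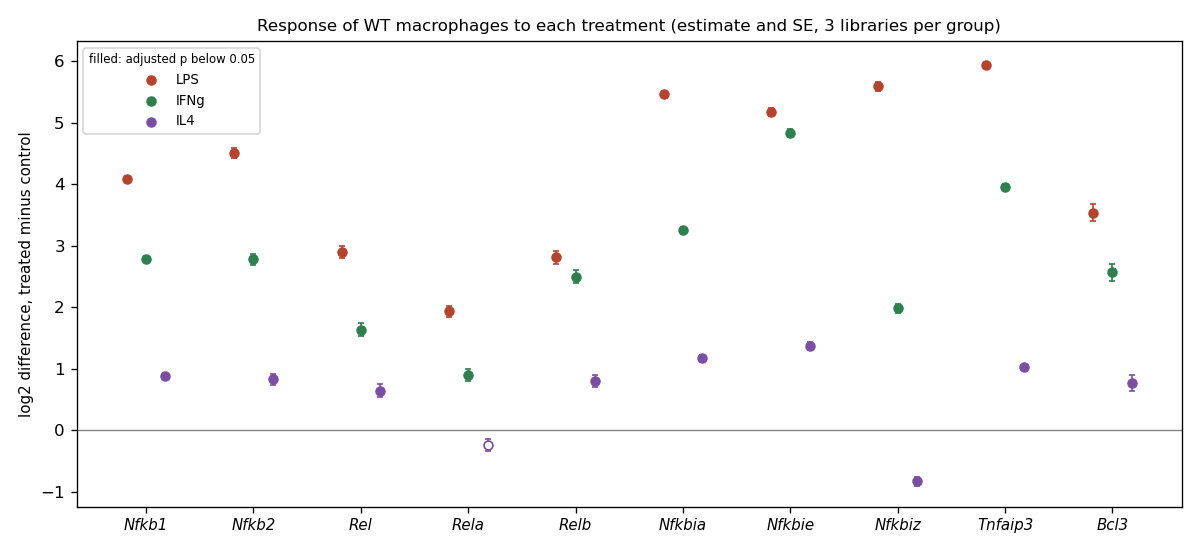
Log2 difference between treated and control WT macrophages for each member, with the SE, for LPS, IFNg and IL4; filled points have an adjusted p below 0.05. Tnfaip3 stands highest after LPS at 5.93, Nfkbie highest after IFNg at 4.83, and Nfkbiz lies at -0.83 after IL4.

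Per kb of exon, the share of Rela among the subunit transcripts was lower in each treated group than in the controls. Rela made up 22.4% ± 0.55 of the summed per-kb level of the 5 subunit genes in WT LPS cells, 26.6% ± 0.43 in WT IFNg cells, 36.6% ± 0.34 in WT IL4 cells and 54.5% ± 1.2 in WT control cells (SD, n = 3 each). Nfkb2 took the largest share after LPS, 37.0% ± 1.8 in WT LPS cells against 15.1% ± 0.24 in WT control cells, and Nfkb1 had 29.6% ± 1.4 against 16.2% ± 1.2. Rel and Relb stayed below 10% in both groups. In KO cells the share of Rela was 26.2% ± 0.65 after LPS, 31.9% ± 1.3 after IFNg, 36.1% ± 2.2 after IL4 and 54.8% ± 1.1 in controls. Per kb, Nfkbia was the highest member in WT LPS cells at 19129, followed by Tnfaip3 at 8489 and Nfkbiz at 4765, and Rel was the lowest at 469. In WT control cells Rela led at 573 per kb, ahead of Nfkbia at 434, and Bcl3 was lowest at 56.8. These shares and levels are descriptions and were not tested. Their order depends on the length used, the union of exons, which is 12061 bases for Nfkb1, 4584 for Nfkb2 and 3072 for Rela. Not divided by length, the WT LPS mean was 34721 for Nfkb1 and 16621 for Nfkb2. In WT control cells the undivided mean was 2048 for Nfkb1 and 1760 for Rela.

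Over all 8 groups the members kept a common order of means, with LPS above IFNg, IFNg above IL4 and, except for Rela in both genotypes and Nfkbiz in WT cells, IL4 above control. For Nfkb1, Rel and Relb the KO and WT ranges overlapped at control, after LPS and after IFNg, so that genotype set no order there. Nfkb2 and Rela had non-overlapping KO and WT ranges after LPS, and Rela after IFNg as well. Nfkbia, Nfkbie, Nfkbiz and Tnfaip3 were already apart by genotype in control cells. KO LPS, WT LPS and KO IFNg could not be placed in order for Bcl3, whose ranges in these 3 groups overlapped.

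Untreated KO macrophages had less of 3 transcripts of the inhibitor and regulator genes than WT controls and more of another. No subunit passed the test. Nfkbiz showed the largest difference, at 0.594 times the WT mean, followed by Nfkbie at 0.727 and Nfkbia at 0.808, and Tnfaip3 was 1.26 times the WT mean. In all, 1 member was higher, 3 were lower and 6 did not pass the test, when 7.16% of all genes passed (4.11% higher and 3.05% lower). Nfkbiz had 296, 275 and 312 in the KO control libraries, against 525, 499 and 464 in the WT control libraries. Nfkbie had 143, 154 and 140.3 in the KO control libraries, against 211, 179 and 210.0 in the WT control libraries. Every KO library lay below every WT library in both. Nfkbia had 552, 592 and 549 in the KO control libraries, against 727, 727 and 642 in the WT control libraries, again without overlap. Tnfaip3 had 1303, 1251 and 1232 in the KO control libraries, against 987, 1054 and 972 in the WT control libraries, with the KO libraries all higher. Nfkbiz fell by log2 0.75 ± 0.07 (adjusted p = 5.3e-08), Nfkbie by 0.45 ± 0.07 (adjusted p = 5.5e-05) and Nfkbia by 0.31 ± 0.05 (adjusted p = 0.0003). Tnfaip3 rose by log2 0.33 ± 0.05 (adjusted p = 1.9e-05). KO means of the 6 members that did not pass were 0.954 times (Bcl3) to 1.06 times (Rel) the WT means. The 95% interval was -0.087 to 0.10 for Nfkb1, -0.15 to 0.24 for Rela and -0.35 to 0.21 for Bcl3. Separation without overlap, as in these 4 genes, held for 11.2% of all genes with KO higher and 12.2% with KO lower. With only the 6 control libraries fitted, Nfkbia had an adjusted p of 0.059 (adjusted p 1.1e-07 to 0.059 over 17 alternatives). T and NK cell markers summed to 27.0 to 30.7 in KO control and 12.2 to 23.2 in WT control libraries and B cell markers to 20.2 to 37.6 in KO control and 12.2 to 18.9 in WT control libraries, apart in both, and their part in the result was not tested. Tnfaip3 lies 1.28 Mb from Cited2 on chromosome 10.

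After LPS Rela, Rel and Nfkb2 were higher in KO cells, at 1.42, 1.33 and 1.24 times the WT LPS mean. The subunits Nfkb1 and Relb did not pass the genotype test, and no inhibitor or regulator gene did. The count was 3 members higher, 0 lower and 7 not passing, against 22.2% of all genes (9.7% higher and 12.5% lower). Taken in either direction, the number called is near that background. Rela had 9545, 9067 and 9943 in the KO LPS libraries, against 7097, 7135 and 5939.7 in the WT LPS libraries, and no KO library overlapped the WT range. Rel had 3804, 5162 and 4984 in the KO LPS libraries, against 3428, 3199.8 and 3883 in the WT LPS libraries, where KO replicate 1, with 161 Rel reads, lay under WT replicate 3. Nfkb2 had 20837, 19710.1 and 21495 in the KO LPS libraries, against 18360.2, 17361 and 14140.5 in the WT LPS libraries, with the ranges apart. The log2 differences were 0.51 ± 0.09 for Rela (adjusted p = 0.00031), 0.40 ± 0.10 for Rel (adjusted p = 0.0054) and 0.32 ± 0.09 for Nfkb2 (adjusted p = 0.01). Without the shallow KO LPS replicate 1 they were 0.50, 0.54 and 0.32 (adjusted p = 0.00075, 7.8e-05 and 0.021).

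None of the 3 inhibitor and regulator genes that were lower in untreated KO cells passed the test after LPS. The difference between the 2 comparisons is tested with the interaction. Nfkbie had 7820.0, 8105 and 8566 in the KO LPS libraries, against 7129.6, 7573 and 7018 in the WT LPS libraries. Nfkbiz had 25563, 26842 and 27797 in the KO LPS libraries, against 24381, 23073 and 24279 in the WT LPS libraries. In both the KO libraries lay above the WT libraries, but the log2 differences of 0.17 ± 0.07 for Nfkbie (adjusted p = 0.074) and 0.16 ± 0.07 for Nfkbiz (adjusted p = 0.11) missed the threshold. Both passed it after centring on the median gene (adjusted p = 0.02 and 0.042) and in DESeq2 (adjusted p = 0.011 and 0.014). The ranges were 0.011 to 0.20 and 0.014 to 0.27 over 17 alternatives. The deposited values of all genes summed to 34930113 to 37512449 in KO LPS and 31791425 to 33267115 in WT LPS libraries. No alternative scaled the libraries to equal totals of these values. Non-overlap with KO higher, seen in these 2 genes and in Rela and Nfkb2, held for 10.8% of all genes (13.5% with KO lower). Tnfaip3 had 59252, 64832 and 63268 in the KO LPS libraries, against 59805, 60044 and 64165 in the WT LPS libraries, overlapping, with a 95% interval of -0.070 to 0.12 on the log2 scale. KO means of the 7 members that did not pass were 0.910 times (Bcl3) to 1.13 times (Nfkbie) the WT means. For Nfkbia the interval was -0.16 to 0.062, for Nfkb1 -0.024 to 0.16, for Relb -0.22 to 0.20 and for Bcl3 -0.41 to 0.15. Fitted on the 6 LPS libraries alone, Rel and Nfkb2 had an adjusted p of 0.24 and 0.21. Without WT LPS replicate 3 Nfkb2 differed by 0.21 (adjusted p = 0.082). Their ranges over 17 alternatives were 8.6e-06 to 0.24 and 0.0023 to 0.21. Marker sums also lay apart between genotypes. T and NK cell markers summed to 1016 to 1273 in KO LPS and 534 to 575 in WT LPS libraries, almost all of it Lck. B cell markers summed to 23.6 to 31.3 in KO LPS and 9.52 to 12.2 in WT LPS libraries, and dendritic cell markers to 21.3 to 24.6 in KO LPS and 0 to 20.2 in WT LPS libraries. In KO LPS replicate 1 a single read is worth 23.6. The lowest B cell sum is thus a single read, and the dendritic cell sums are about that size. The part of these marker sums in the result was not tested, and the sums of the other lists overlapped.

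With IFNg, Rela rose in KO cells and Tnfaip3 fell, a count of 1 higher, 1 lower and 8 not passing when 9.05% of all genes passed (4.83% higher and 4.21% lower). Rela had 4886, 3992 and 4231 in the KO IFNg libraries, against 3487, 3055 and 3272 in the WT IFNg libraries. Tnfaip3 had 13676, 14419 and 13962 in the KO IFNg libraries, against 15754, 15420.1 and 15689 in the WT IFNg libraries. The ranges were apart in both, with the KO libraries above for Rela and below for Tnfaip3, the opposite of its direction in untreated cells. Rela differed by log2 0.41 ± 0.09 (adjusted p = 0.0045), a mean 1.34 times that of WT, and Tnfaip3 by -0.16 ± 0.05 (adjusted p = 0.032), 0.897 times WT. Bcl3 had 1382, 883 and 1124 in the KO IFNg libraries, against 855, 841 and 808 in the WT IFNg libraries. Its KO libraries spread widely but all lay above the WT libraries, and the log2 difference of 0.41 ± 0.13 missed the threshold (adjusted p = 0.059). Nfkbie and Nfkbia also had KO libraries above all WT libraries, by log2 0.17 ± 0.07 (adjusted p = 0.14) and 0.022 ± 0.05 (adjusted p = 0.91), a separation that 12.2% of all genes showed (15.7% with KO lower). KO means of the 8 members that did not pass were 0.928 times (Nfkbiz) to 1.35 times (Bcl3) the WT means. The interval for Nfkb1 was -0.060 to 0.12 and for Nfkbiz -0.26 to 0.037. The Tnfaip3 call was lost under 8 of 17 alternatives, among them edgeR and the removal of KO IFNg replicate 1 or 3 or of any WT IFNg library (adjusted p 0.0023 to 0.60 over 17 alternatives). Bcl3 passed under 7 of 17, among them edgeR (adjusted p = 0.0019) and the removal of KO IFNg replicate 2 (adjusted p 0.0019 to 0.37 over 17 alternatives). T and NK cell markers, mostly Lck, summed to 866 to 967 in KO IFNg and 613 to 643 in WT IFNg libraries. Dendritic cell markers, mostly Clec9a, summed to 657 to 701 in KO IFNg and 754 to 845 in WT IFNg libraries, fibroblast markers to 246 to 296 in KO IFNg and 303 to 359 in WT IFNg libraries and B cell markers to 16 to 29.4 in KO IFNg and 11.7 to 15.4 in WT IFNg libraries. The ranges were apart in all 4 lists, and their part in the result was not tested.

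With IL4, Nfkbiz and Tnfaip3 rose in KO cells, a count of 2 higher, 0 lower and 8 not passing, against 9.29% of all genes (6.14% higher and 3.14% lower). Nfkbiz had 353, 368 and 327 in the KO IL4 libraries, against 297, 247 and 295 in the WT IL4 libraries. Tnfaip3 had 2394, 2345 and 2219 in the KO IL4 libraries, against 2063, 2036 and 2011 in the WT IL4 libraries. All KO libraries lay above all WT libraries in both genes. The log2 differences were 0.32 ± 0.07 for Nfkbiz (adjusted p = 0.0028) and 0.19 ± 0.05 for Tnfaip3 (adjusted p = 0.0083). Nfkb1 had 3486, 3526 and 3692 in the KO IL4 libraries, against 3751, 3781 and 3774 in the WT IL4 libraries, with KO below WT throughout, and its log2 difference of -0.079 ± 0.04 did not pass (adjusted p = 0.36). Such separation held for 17.7% of all genes with KO higher and 14.6% with KO lower. KO means of the 8 members that did not pass were 0.879 times (Bcl3) to 1.11 times (Rel) the WT means. Intervals of the log2 difference were -0.26 to 0.13 for Rela, -0.089 to 0.13 for Nfkbia and -0.14 to 0.14 for Nfkbie. Nfkbiz lost the call with the 6 IL4 libraries fitted alone (adjusted p = 0.087, range 0.00019 to 0.087 over 17 alternatives). Tnfaip3 lost it without KO IL4 replicate 1 (adjusted p = 0.057, range 0.0005 to 0.057). Neutrophil markers summed to 269 to 323 in KO IL4 and 497 to 621 in WT IL4 libraries, with Ly6g at or near 0 throughout. Fibroblast markers summed to 352 to 490.0 in KO IL4 and 494 to 507 in WT IL4 libraries and T and NK cell markers to 24.1 to 41.4 in KO IL4 and 14.1 to 19.0 in WT IL4 libraries. The ranges were apart in all 3 lists, and their part in the result was not tested.

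**Figure D4:**
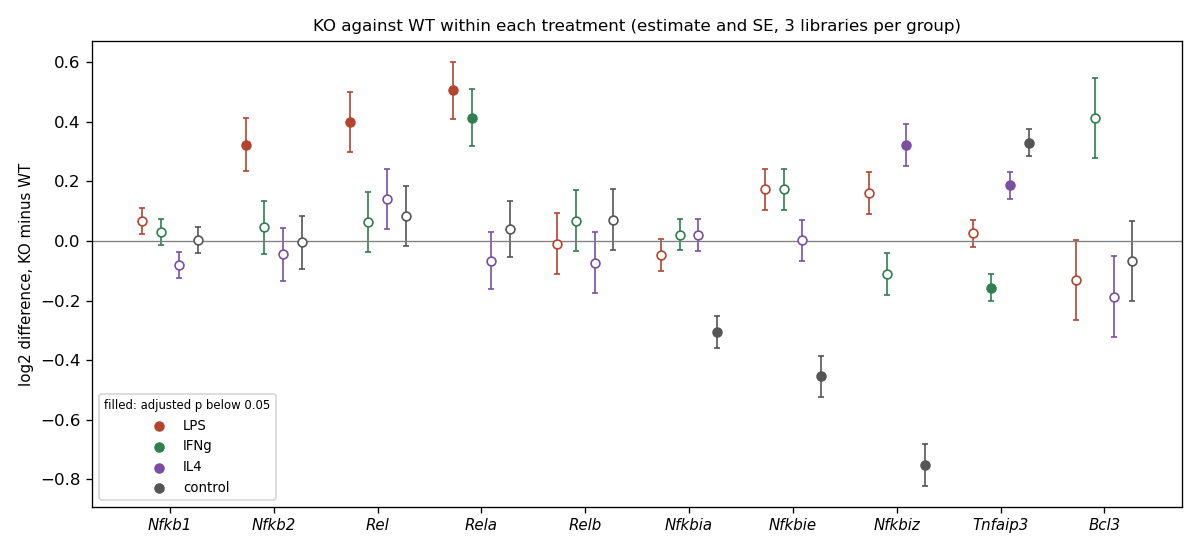
Log2 difference between KO and WT macrophages for each member, with the SE, in control, LPS, IFNg and IL4 cells; filled points have an adjusted p below 0.05. Nfkbiz lies lowest in control cells at -0.75, and Rela lies highest after LPS at 0.51.

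The size of the response to each treatment differed between genotypes for 5 of the 10 genes in at least 1 treatment. The interaction, the log2 change in KO minus that in WT, passed for 5 members with LPS (4 higher, 1 lower), 4 with IFNg (3 higher, 1 lower) and 3 with IL4 (all higher). Of all genes 8.79% passed for LPS (4.29% higher and 4.5% lower), 2.5% for IFNg (1.32% and 1.18%) and 3.61% for IL4 (2.45% and 1.15%). Nfkbiz, Nfkbie and Nfkbia, lower in untreated KO cells, had a more positive log2 change in KO cells under each treatment. These 3 interactions and the untreated comparison share the control libraries, so a difference in the controls enters all of them.

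The Nfkbiz mean with LPS was 90.8 times its control mean in KO cells and 48.2 times in WT cells, an interaction of log2 0.91 ± 0.10 (adjusted p = 8e-07). With IL4 it was 1.19 times its control mean in KO cells and 0.564 times in WT cells, with WT IL4 libraries below every WT control library, whereas the KO IL4 libraries all lay above the KO control libraries (1.07 ± 0.10, adjusted p = 5.7e-08). With IFNg the ratios were 6.18 in KO and 3.95 in WT cells (0.64 ± 0.10, adjusted p = 0.00024). Nfkbie changed more in KO cells with all 3 stimuli: the LPS mean was 56.1 times its control mean in KO cells and 36.2 times in WT cells (0.63 ± 0.10, adjusted p = 8.9e-05). Its interaction was 0.63 ± 0.10 for IFNg (adjusted p = 0.00022) and 0.46 ± 0.10 for IL4 (adjusted p = 0.0051). Nfkbia had smaller interactions of 0.26 ± 0.07 for LPS (adjusted p = 0.029), 0.33 ± 0.07 for IFNg (adjusted p = 0.013) and 0.33 ± 0.07 for IL4 (adjusted p = 0.01). Tnfaip3 went the other way, with a smaller change in KO cells: its LPS mean was 49.5 times its control mean in KO cells and 61.1 times in WT cells (-0.30 ± 0.07, adjusted p = 0.0029). Its IFNg mean was 11.1 times its control mean in KO cells and 15.6 times in WT cells (-0.49 ± 0.07, adjusted p = 3.8e-05). Rela was the subunit with a called interaction, 0.46 ± 0.13 with LPS (adjusted p = 0.029), its LPS mean being 5.26 times its control mean in KO cells and 3.82 times in WT cells.

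Calls near the threshold depended on the setting. The Rela interaction with LPS was lost under 6 of 23 alternatives, among them the removal of KO control replicate 1 or 3, WT control replicate 3, KO LPS replicate 3 or WT LPS replicate 3 (adjusted p 0.0085 to 0.088 over 23 alternatives). That of Nfkbia with LPS was lost under 10 of 23, 7 of them the removal of KO control replicate 1 or 3, WT control replicate 1 or 2, KO LPS replicate 1 or WT LPS replicate 1 or 3 (adjusted p 0.0018 to 0.11 over 23 alternatives). Rel, at 0.32 ± 0.14 with LPS (adjusted p = 0.20), passed without KO LPS replicate 1 (0.46, adjusted p = 0.015) in a range of 0.0044 to 0.39. For Nfkb1 the intervals of the interaction were -0.066 to 0.19 with LPS, -0.10 to 0.16 with IFNg and -0.21 to 0.045 with IL4, the narrowest of any member.

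**Figure D5:**
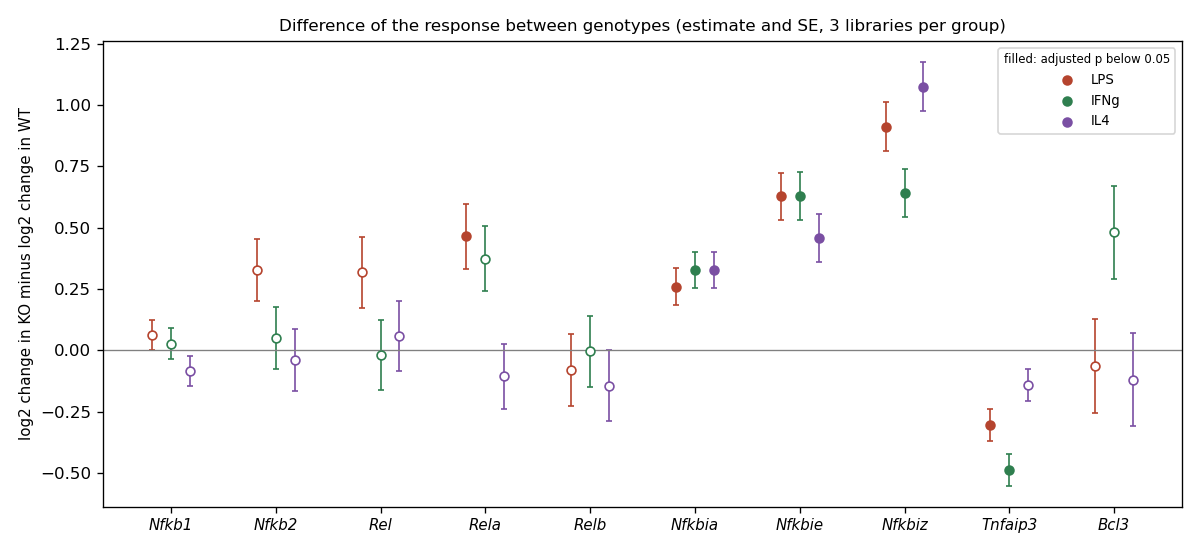
Difference between genotypes in the log2 response of each member, KO minus WT, with the SE, for LPS, IFNg and IL4; filled points have an adjusted p below 0.05. Nfkbiz lies at 0.91, 0.64 and 1.07 with LPS, IFNg and IL4, and Tnfaip3 lies below 0 in all 3.

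Around these members, 34 NF-kB target genes, 31 receptors, adaptors and kinases of the pathway and 19 other inhibitors were followed. All 34 targets rose after LPS in WT cells (median log2 7.22), with Ptgs2, encoding the prostaglandin synthase COX-2, at 12.53. After IFNg 29 rose and 3 fell (median 3.51), with Nos2, the inducible nitric oxide synthase, at 10.62. After IL4 18 rose and 5 fell (median 0.54), with the chemokine gene Ccl5 at 6.24. Medians over all genes tested were -0.06, 0 and 0. In the WT control libraries Ptgs2 ran from 13.5 to 48.8, Nos2 from 8.63 to 39.1 and Ccl5 from 24.3 to 46.4. The sizes of these changes thus rest on low control values. In the signalling list LPS gave 22 higher and 5 lower, IFNg 22 higher and 6 lower and IL4 6 higher and 7 lower of 31. Cd40, the receptor for CD40 ligand, had the largest change each time, at 9.69, 9.54 and 2.35. Of the 19 other inhibitors LPS gave 12 higher and 4 lower, IFNg 8 higher and 5 lower and IL4 3 higher and 8 lower. Called in either direction were 100%, 94.1% and 67.6% of the targets, 87.1%, 90.3% and 41.9% of the signalling list and 84.2%, 68.4% and 57.9% of the inhibitors after LPS, IFNg and IL4, beside 53.3%, 45.1% and 20.1% of all genes. The lists were chosen with earlier results of these data known, so these and the later shares of the lists are descriptions only. Tnip3, which encodes an A20-binding protein, differed by 4.75, 4.24 and 1.80 after LPS, IFNg and IL4.

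Between genotypes the target list had more genes lower than higher in untreated KO cells and more higher than lower in treated ones. In controls 12 of 34 targets fell and 2 rose in KO cells (median log2 -0.34, against 0 over all genes), and Nlrp3, the inflammasome sensor, averaged 231 ± 4.71 in KO and 486 ± 13 in WT controls (SD, n = 3 each; log2 -1.07). After LPS 14 were higher and 4 lower (median 0.33, against -0.06), among them Il6, whose induction by LPS is known to need IkBz in mice, at 30559 ± 2896 in KO and 10719.7 ± 689.8 in WT LPS cells (log2 1.51). Il10, encoding an anti-inflammatory cytokine, averaged 1499.9 ± 78.0 in KO and 4827 ± 467 in WT LPS cells (log2 -1.68). Saa3 averaged 10575 ± 653 in KO and 31245 ± 716 in WT LPS cells (log2 -1.56). The SE of the log2 difference was 0.48 for Il6, 0.48 for Il10 and 0.20 for Saa3. After IFNg 10 were higher and 2 lower (median 0.22, against -0.025), with the neutrophil chemokine Cxcl2 at 742 ± 13.6 in KO and 252 ± 19.8 in WT IFNg cells (log2 1.56). With IL4 13 were higher and 6 lower (median 0.27, against 0). The targets called in either direction were 41.2% of the list in controls, 52.9% after LPS, 35.3% after IFNg and 55.9% with IL4, beside 7.16%, 22.2%, 9.05% and 9.29% of all genes. The interaction passed with a more positive log2 change in KO cells in 18 targets and a more negative one in 2 for LPS. The counts were 14 and 1 for IFNg, and 13 and 2 for IL4. These are 58.8%, 44.1% and 44.1% of the list, beside 8.79%, 2.5% and 3.61% of all genes. All 3 interactions use the control libraries, where 12 targets were lower in KO cells, so a difference there enters all of them. Over the alternatives 1 to 5 targets were higher and 6 to 14 lower in controls and 9 to 23 targets were higher and 3 to 7 lower after LPS, the lowest of the control counts with only the control libraries fitted. Every list gene named here and in the neighbouring paragraphs had an adjusted p below 0.05.

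The other inhibitors and the signalling genes had median differences between genotypes no larger than 0.14 on the log2 scale. Of the 19 inhibitors, KO cells had 3 higher and 1 lower in controls, 1 higher and 3 lower after LPS, 3 higher and 1 lower after IFNg and 3 higher and 1 lower with IL4. That is 21.1% of the list in each condition, beside 7.16%, 22.2%, 9.05% and 9.29% of all genes in controls, LPS, IFNg and IL4, so the LPS count is near the background. Tnip3 fell in KO cells by log2 0.37 in controls, 0.56 after LPS and 0.33 after IFNg. Tnip1, another A20-binding protein gene, rose by 0.41 in controls and 0.44 after IFNg. Irak3, an inhibitory kinase-like protein of Toll-like receptor signalling, differed by -0.46 after LPS and 0.42 with IL4. In the signalling list KO cells had 4 higher and 1 lower in controls, 6 higher and 5 lower after LPS, 2 higher and 2 lower after IFNg and 11 higher and 0 lower with IL4 of 31. These are 16.1%, 35.5%, 12.9% and 35.5% of the list, set against the shares of all genes given for the inhibitors, and the count after IFNg lies near its background. Tnfrsf1b, the second TNF receptor, rose by 0.48 in controls, 0.78 after IFNg and 0.33 with IL4. After LPS, Tlr4, the LPS receptor, rose by 0.63 and Ripk1, a kinase of the TNF receptor complex, by 0.62, while Ikbke, a kinase related to the IkB kinases, fell by 0.52.

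Across the 24 libraries the members' profiles were alike, with Pearson's r of log2 values between pairs of members from 0.841 (Nfkbie and Nfkbiz) to 0.997 and a median of 0.955. Among 8814 genes with a median value of at least 100, the profile most like that of Nfkbie was Icam1, an adhesion molecule gene (r = 0.999), and that most like Nfkb1 was Tnfaip3 (r = 0.997). Nfkb2 was most like Lrrc59 (0.997), Relb most like Mllt6 (0.996), Rela most like Mafk (0.994) and Rel most like Nck1 (0.993). Nfkbia was most like P4ha1 (0.997), Nfkbiz most like Lsm14a (0.995) and Bcl3 most like Socs3 (0.991), each as Pearson's r over 24 libraries. The likeness is a description over libraries that share their treatments, and it was not tested.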

How the data were processed

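RNA sequencing of 24 libraries of mouse bone marrow-derived macrophages was deposited as a single table. Per the submitters' processing notes, TopHat2 2.2.1, Cufflinks 2.2.1 and Cuffdiff were used with mm10 (GRCm38), and other steps are not given in the sources used here. The values that the authors deposited are a signal per gene. As read from the values, they are read counts divided by 1 factor per library, since in every library 100% of values above 0 were whole multiples of a single step within 0.05 reads, and reads were recovered from them. Libraries held 1478507 to 73409343 reads, and that number of reads limits precision by counting error.

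The filter kept 18637 genes whose value reached 1 in 3 or more libraries, and these were tested with limma 3.58.1 in R 4.3.3 on log2(value + 1), with all 24 libraries, 1 mean per group and a mean-variance trend, and p-values were adjusted by Benjamini-Hochberg over all genes in each of 10 comparisons, with a threshold of 0.05. A log2 difference on this scale understates the change of low genes. Errors of log2 differences are standard errors and intervals are 95%. The design had planned limma for such values and a count test on the recovered reads (edgeR 4.0.16 and DESeq2 1.42.0) as alternatives. Further alternatives were other pseudocounts (0.5 and 10), filters, median centring, TMM scaling, only the groups compared, library weights, a replicate block and leaving out each library. Scripts were tested on simulated data. Levels per kb divide the value by the union of exons in GENCODE M21. Lists of pathway genes and markers, and the 10 members, were chosen with earlier results of these data known. From each pathway list the text names up to 3 called genes with the largest change and a mean of at least 10 in either group, and for each member the most alike gene among those with a median value of at least 100. Promoter sequences are RefSeq's. Protein sequences were not used here.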

Additional observations from a re-analysis of the deposited data

Results flagged for a closer look

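A difference between genotypes in the response to a treatment was tested as an interaction. Of all genes 8.79% passed for LPS, 2.5% for IFNg and 3.61% for IL4. Among the 10 genes and 3 treatments described here, 12 combinations of gene and treatment passed the threshold. With LPS these were Rela at 0.46 ± 0.13 (adjusted p = 0.029), Nfkbia at 0.26 ± 0.07 (adjusted p = 0.029), Nfkbie at 0.63 ± 0.10 (adjusted p = 8.9e-05), Nfkbiz at 0.91 ± 0.10 (adjusted p = 8e-07) and Tnfaip3 at -0.30 ± 0.07 (adjusted p = 0.0029), as log2 change in KO minus log2 change in WT. With IFNg they were Nfkbia at 0.33 ± 0.07 (adjusted p = 0.013), Nfkbie at 0.63 ± 0.10 (adjusted p = 0.00022), Nfkbiz at 0.64 ± 0.10 (adjusted p = 0.00024) and Tnfaip3 at -0.49 ± 0.07 (adjusted p = 3.8e-05). With IL4 they were Nfkbia at 0.33 ± 0.07 (adjusted p = 0.01), Nfkbie at 0.46 ± 0.10 (adjusted p = 0.0051) and Nfkbiz at 1.07 ± 0.10 (adjusted p = 5.7e-08). In Nfkbiz, Nfkbie and Nfkbia the KO control libraries lay below every WT control library, and in Tnfaip3 above. All 3 interactions of a gene rest on those same control libraries. Some of the 12 calls, among them Rela and Nfkbia with LPS, were lost under alternatives, as described with the interactions.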

How the results depend on the processing

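Of 52 calls among the 10 members over 10 comparisons, 41 held under every alternative run and 11 were lost at least once, while 956 recomputed values of called results held 0 changes of sign and 33 losses of the call. The calls of all 10 members after LPS and after IFNg in WT cells were among those that held. The number of members called after LPS between genotypes was 3, with 5 after centring on the median gene, 5 in DESeq2 and 1 with only the groups compared in the fit (2 to 3 with a library left out). For IFNg it was 2, with 4 in DESeq2 and 1 to 3 with a library left out. For IL4 it was 2, with 1 when only the groups compared were fitted and 1 to 2 with a library left out. The LPS interaction had 5 calls, with 3 when only the groups compared were fitted and 3 to 5 with a library left out, and the IL4 interaction had 3, with 1 when only those groups were fitted, a fit with fewer samples. Otherwise the cause was not tested. Rela after IL4 in WT cells, not called, passed with library weights (adjusted p = 0.022), as did the interactions of Tnfaip3 with IL4, Rela with IFNg and Bcl3 with IFNg (adjusted p = 0.024, 0.048 and 0.041). Over all genes, centring on the median gene moved the split of calls to 922 higher and 369 lower in untreated cells (766 higher and 568 lower without it), 2162 higher and 1554 lower after LPS (1808 higher and 2333 lower), 1134 higher and 442 lower after IFNg (901 higher and 785 lower), and in WT cells 6823 higher and 3065 lower after LPS (4759 higher and 5183 lower) and 6107 higher and 2515 lower after IFNg (4201 higher and 4211 lower). On the recovered reads, edgeR called 1905 genes between genotypes in untreated cells, 3543 after LPS, 2533 after IFNg and 2862 with IL4, where limma called 1334, 4141, 1686 and 1731. With only the 6 LPS libraries fitted limma called 1021. Adding the replicate number as a block changed no member's call, for example Rela after LPS between genotypes at 0.51 (adjusted p = 0.00071). Libraries with the same number did not deviate together (correlations -0.61 to 0.55 over 84 pairs), and 3 of 24 libraries correlated best with their own number. Libraries with different numbers had correlations of -0.60 to 0.62 over 168 pairs, so some libraries of different groups deviated alike. WT LPS replicate 3 and KO IL4 replicate 1, for example, had 0.62. A block by replicate number does not take up such likeness between libraries, and its part in the calls was not tested. Sign changes were seen in 22 of the 48 uncalled results and none of these values passed the threshold. As log2 differences between genotypes or of interactions, they were Nfkb2 untreated 0.065, Bcl3 untreated 0.0025, Relb LPS 0.057, Nfkbia LPS 0.019, Nfkb2 IL4 0.0017 and Relb IFNg interaction 0.0047 with centring on the median gene; Nfkb2 untreated 0.014 with TMM scaling, and Nfkb2 untreated 0.025 and Relb LPS 0.027 with edgeR, Nfkb2 untreated 0.0076 and Relb LPS 0.016 with DESeq2, Nfkb2 untreated 0.045, Relb LPS 0.019, Nfkbie IL4 -0.0017, Nfkb2 IFNg interaction -0.0065 and Rel IL4 interaction -0.014 with library weights. With each library left out in turn, the values ran over ranges that include 0: Nfkb1 untreated -0.011 to 0.022, Nfkb2 untreated -0.061 to 0.060, Rela untreated -0.012 to 0.11, Bcl3 untreated -0.15 to 0.011, Relb LPS -0.094 to 0.047, Tnfaip3 LPS -0.0018 to 0.063, Nfkb2 IFNg -0.014 to 0.10, Relb IFNg -0.0013 to 0.15, Nfkb2 IL4 -0.11 to 0.041, Rela IL4 -0.13 to 0.058, Relb IL4 -0.18 to 0.040, Nfkbia IL4 -0.022 to 0.058, Nfkbie IL4 -0.045 to 0.063, Bcl3 LPS interaction -0.19 to 0.022, Nfkb1 IFNg interaction -0.0029 to 0.044, Nfkb2 IFNg interaction -0.014 to 0.11, Rel IFNg interaction -0.080 to 0.069, Relb IFNg interaction -0.074 to 0.082, Nfkb2 IL4 interaction -0.10 to 0.045, Rel IL4 interaction -0.017 to 0.14 and Rela IL4 interaction -0.18 to 0.018. Depth limits KO LPS replicate 1 above all, where Bcl3 had 71 reads, and 3 libraries per group limit every comparison.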
